A study of Mus musculus with 12 samples.

Results

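Saline-injected epileptic mice were compared at 24 h and at 4 h after the injection, using the 3 hippocampal arrays of each group (labelled saline 24 h and saline 4 h), 6 of the 12 arrays of the series. All of these animals were male C57BL/6N mice aged 12 weeks that had received 50 nl of 20 mM kainate, a glutamate receptor agonist that causes seizures, into the left dorsal hippocampus. Recurrent seizures had set in by 3 weeks later, when 1 intraperitoneal injection of saline was given, with hippocampi taken after 4 or 24 h. The other 6 arrays are of mice given lipopolysaccharide (LPS, a bacterial endotoxin) at 100 µg/kg in place of saline, killed at the same times. No mice without kainate are among the samples, the dissected side and the hour of day are not stated in the labels, and each group is limited as a model to mice with established seizures. Only RNA of high integrity was used, copied into Cy3-labelled cRNA and hybridised 1 sample per array. Per the file headers, all arrays of the 4 h groups were scanned in 1 run and all of the 24 h groups in another, so that time after injection and scan run cannot be told apart in any value below.

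Saline injection is the control of the LPS treatment and is itself a handling stress. Handling and injection are known to raise glucocorticoids for some hours, and immediate early genes such as Fos and Egr4 are switched on within minutes by neuronal firing and fade within hours. Expression of the circadian clock genes follows the hour of day, and in the kainate-injected hippocampus gliosis, microglial activation and recurrent discharges go on for weeks. The 4 h and 24 h saline groups differ in time after handling, and the labels do not record seizures in the hours before dissection.

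Measures of the arrays themselves differed along with the groups. The 75th percentile of the signal, which was used for scaling, was 365 ± 12.3 intensity units (SD, n = 3) at 4 h and 769 ± 60.7 (SD, n = 3) at 24 h. The share of probes well above background was 54.6% ± 0.662 and 65.6% ± 0.742. The strongest difference of any gene was in the 18S ribosomal RNA, Rn18s, a structural RNA without a poly(A) tail. Both of its 60-base probes (mm9, plus strand of chromosome 17) are shown because no other gene differed as much.
Rn18s probe at chr17:39984059-39984118: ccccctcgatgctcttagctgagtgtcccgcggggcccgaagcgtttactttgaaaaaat
Rn18s probe at chr17:39983322-39983381: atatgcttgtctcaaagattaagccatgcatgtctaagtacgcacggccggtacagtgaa
The first gave log2 signals of 0.40, 0.40 and 0.37 on the 4 h arrays and 8.14, 8.20 and 8.03 on the 24 h arrays, relative to each array's 75th percentile. This is a difference of 7.73 ± 0.09 (SE). The second probe differed by 5.94 ± 0.08, but its mean at 4 h was only -6.91. The gene Cacng8, at a mean of -6.23 there, was above background on none of the 4 h arrays. The size given by the second probe is therefore uncertain. In the LPS arrays the same probes were 6.14 and 4.41 higher at 24 h than at 4 h. Position along the transcript also went with the difference. Among 5073 transcripts with at least 2 probes, the probe nearer the 5′ end differed more in the direction of 24 h than the one nearer the 3′ end, by a median of 0.04 for probes up to 50 nt apart (183 transcripts) and of 0.28 for probes over 800 nt apart (3294 transcripts). More than 1 probe was kept for 6422 genes, and at 1724 of them (26.8%) some probes were called higher and others lower. When the genes above background on all 6 arrays were split into 4 equal classes by signal, the brightest class had a median difference of -0.61 and the dimmest -0.19. The part of these measures in the gene differences below was not tested.

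The arrays separated the groups at most genes. Of 17198 genes tested, 14357 (83.5%) were called different at an adjusted p under 0.05 in limma, 5764 of them higher at 24 h (33.5%) and 8593 lower (50.0%). At least 2-fold differences among these numbered 4944 (28.7%), of which 2143 were higher (12.5%) and 2801 lower (16.3%). The filter admitted 2220 genes only through the 24 h arrays and 77 only through the 4 h arrays, and a gene admitted through the group where it is high had to differ. Among the 14901 genes above background on all 6 arrays, 4610 were called higher (30.9%) and 8403 lower (56.4%). The replicates spread far less than that: the median SD within a group was 0.05 at 4 h and 0.06 at 24 h on the log2 scale, against a median absolute difference of 0.63. The values of the groups did not overlap at 14636 genes (85.1%), with 24 h higher at 34.4% and lower at 50.7% of all genes. The split between directions depended on the scaling. Higher calls made up 40.1% of all calls, but 26.4% after normexp background correction and 50.6% when the percentile was taken over probes above background on all arrays. Among the calls of at least 2-fold the share was 43.3%, against 26.6% and 59.3% under those settings and 29.4% with scaling to the array median. The median of all genes was -0.16, and between -0.42 and 0.04 under the other scalings, so group medians below are given relative to it. The labels give 3 mice per group, and the p-values measure the spread among them within each scan run. A lower signal from a cell type's genes can come from fewer cells or from less RNA per cell, which cannot be told apart in whole tissue.

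**Figure D1:**
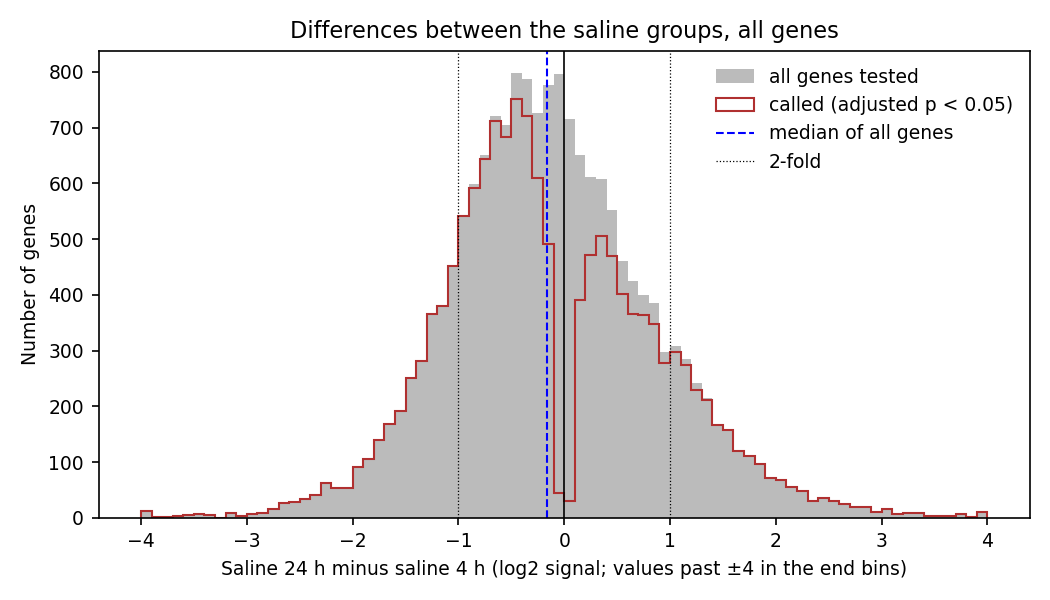
Number of genes (y axis) by the log2 difference of saline 24 h minus saline 4 h (x axis), for all 17198 genes tested (grey) and the 14357 called (red outline). The dashed line is the median of all genes at -0.16, and most genes past the dotted 2-fold lines were called.

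Chemokine, interferon-induced and activity genes were among the 15 largest falls from 4 h to 24 h. These and the rises that follow are of genes with a plain symbol, 85.5% of which were called, that were above background on all 6 arrays. Ccl5, a chemokine for T cells, had log2 signals of 4.30, 4.28 and 4.29 at 4 h and 0.41, 0.38 and 0.31 at 24 h (probe at chr11:83339296-83339355 on mm9), a 15.2-fold fall with an SE of 0.04 on the log2 scale (limma adjusted p = 2.1e-12). Both Ccl5 probes fell. Gpr151, an orphan receptor best known from habenula neurons, fell by 3.95, and Wfdc18, a small secreted protein, fell by 3.94. Ucn, which encodes the stress peptide urocortin, went from 2.10, 1.92 and 1.94 to -1.87, -1.99 and -1.87. Its groups did not overlap, as at 85.1% of all genes. The chemokines Ccl4 and Ccl3, made by microglia among other cells, fell by 3.51 and 3.07. Ifi27l2a, an interferon-induced gene, fell by 3.34 on its leading probe and was lower on each of its 3 probes. Tnfrsf12a, the receptor for the cytokine TWEAK, fell by 3.13, and Cd300lf, an inhibitory receptor of myeloid cells, by 3.06. Egr4, an immediate early transcription factor, fell by 2.93. The 15 largest falls were completed by Smpx, a small muscle protein (-3.40), Tcf7l2 (-3.34), Lce1f of the skin barrier (-3.18), the pituitary hormone gene Prl (-3.12) and Calml3, a calmodulin-like protein (-3.01). Tcf7l2, a Wnt-pathway transcription factor abundant in thalamus, is not a uniform case: its 3 probes differed by -3.34, 1.02 and 0.14, and only the one nearest the 3′ end is lower. That probe had means of 2.94 at 4 h and -0.40 at 24 h (SE of the difference 0.05). The other 2 were far dimmer, with means of -6.23 and -4.86 at 4 h and -5.21 and -4.72 at 24 h. Their differences are less well measured, with SEs of 0.29 and 0.17.

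The largest rises included nervous-system genes beside genes of no common function. Lars2, the mitochondrial leucyl-tRNA synthetase, had 0.12, 0.23 and 0.16 at 4 h and 5.86, 5.78 and 5.69 at 24 h, a 48.7-fold difference that was 5.23 on the log2 scale in the LPS arrays. Only 1 probe was kept for Lars2, and whether it also binds other RNA was not tested. Its fold may therefore not stand for the synthetase mRNA. Dio3, the deiodinase that inactivates thyroid hormone, rose 26.0-fold, from -3.80, -3.91 and -3.93 to 0.86, 0.84 and 0.78. Dlg4, the postsynaptic scaffold PSD-95, rose by 3.36 with both of its probes higher. Syt4, a synaptotagmin of secretory vesicles, rose by 3.72, and Nnat, neuronatin, by 3.35. The 14-3-3 protein gene Ywhae rose by 3.36, the RNA-binding protein gene Msi2 by 3.38 (of its 4 probes, 3 were higher and 1 lower) and the corepressor gene Rcor3 by 3.78. Klrb1c, the NK cell receptor NK1.1, rose by 3.77, Ldb2 (a LIM-domain binding protein) by 3.64, Kdm8 by 3.50, the zinc finger gene Zfp871 by 3.33, Tmcc2 by 3.31 and Dedd (a death effector domain protein) by 3.22. Actb, the beta-actin gene often used as a reference, also rose on the 1 probe kept for it, by 3.20, from -4.16, -4.12 and -4.12 to -0.89, -1.01 and -0.90. This probe was dim beside that of Gapdh, which had means of 4.86 at 4 h and 6.75 at 24 h. Its rise may therefore not stand for beta-actin mRNA as a whole. Of 15 reference genes 6 were called higher (40.0%) and 9 lower (60.0%), shares near those of all genes, with a median 0.10 below all genes that changed side in 7 of the 22 alternatives. Individual members differed widely, with Gapdh 3.71-fold higher and Gusb 3.07-fold lower.

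Some genes crossed the detection limit. On all 3 arrays at 24 h and none at 4 h, 1546 genes were well above background, and 28 showed the reverse. For these, a fold is only a lower bound: the dim group was set, array by array, to the smallest signal that any probe had while well above background, unless the gene itself was brighter. Cacng8, a regulatory subunit of AMPA receptors counted with the calcium channels, was at least 13.2-fold higher at 24 h, the kinase gene Stk32c at least 7.57-fold, the fucosyltransferase gene Fut9 at least 7.51-fold, the mitochondrial enzyme gene Ogdhl at least 7.10-fold and Timmdc1, an assembly factor of respiratory complex I, at least 6.98-fold. Timmdc1 has a second probe, above background on all 6 arrays, that was lower at 24 h (-0.77), so its direction is unsettled. In the other direction Rpl39l, a ribosomal protein paralog whose probe may also bind its near-identical parent transcript, was at least 13.1-fold lower at 24 h, Fads2b at least 6.99-fold, the phosphatase-like gene Pp2d1 at least 6.94-fold, Ripor3 at least 5.93-fold and the protease gene Adam33 at least 5.90-fold.

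The lists of genes by function or cell type numbered 46, with 671 of their 714 distinct genes measured. Their medians lay above that of all genes for 18 lists and below it for 28. The counts of called members below are to be read beside the 33.5% of all genes called higher and 50.0% called lower. Under 22 alternative settings, 16 lists stayed above and 16 below in every one, and the other 14 changed side at least once. Some of these settings alter the estimate of the spread and not the differences, so they could not move a list. They are the saline arrays alone, the replicate block, slide as a random block, and trend and robust moderation. Each gave the main median of all genes (-0.16) and the same 18 and 28 lists.

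**Figure D2:**
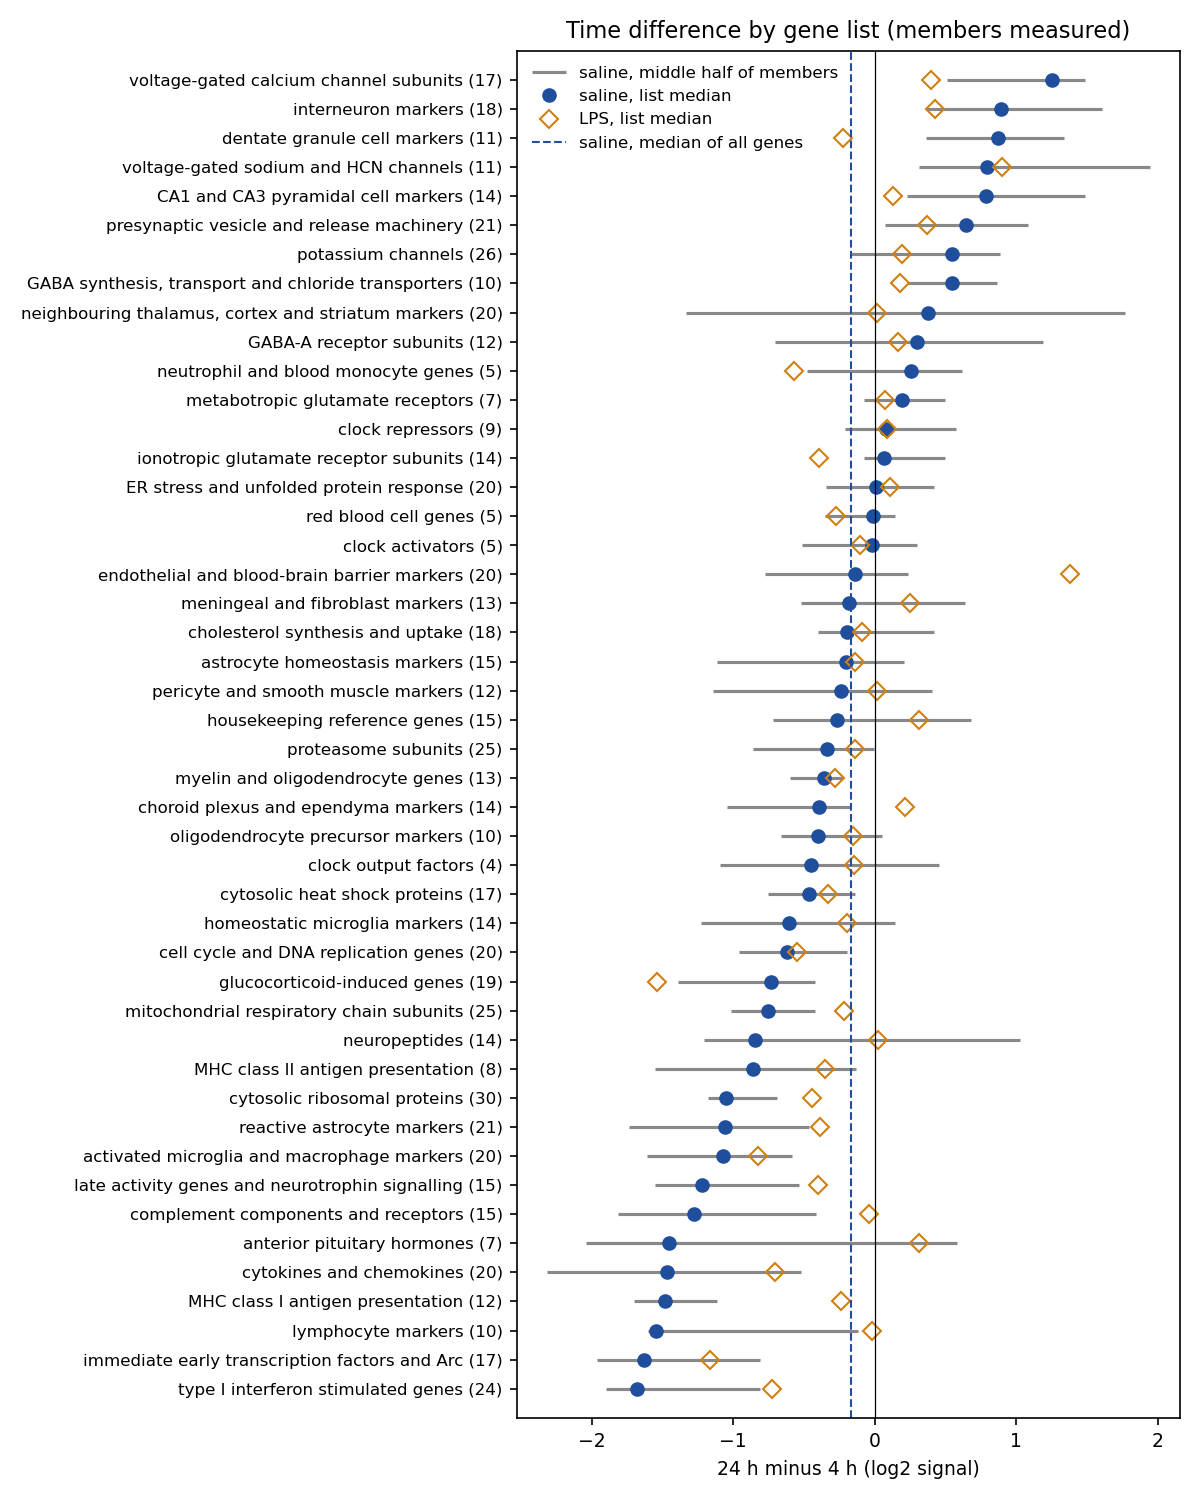
Median log2 difference of 24 h minus 4 h (x axis) for each of 46 gene lists (y axis, members measured in brackets), in the saline arrays (filled circles, with grey bars from the lower to the upper quartile of the members) and the LPS arrays (open diamonds). Interferon-stimulated genes have the lowest saline median (-1.68) and calcium channel subunits the highest (1.26), and the dashed line is the saline median of all genes (-0.16).

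Immediate early genes were lower at 24 h. Of 17 measured, 13 fell and 3 rose, against 50.0% and 33.5% of all genes, with a median 1.47 below that of all genes. Fos, the activity-induced AP-1 factor, had 1.10, 1.02 and 1.03 at 4 h and -1.58, -1.58 and -1.63 at 24 h (probe at chr12:86817900-86817959 on mm9), a 6.25-fold fall (SE 0.03 on the log2 scale, limma adjusted p = 4.6e-12). Egr4 went from 5.52, 5.53 and 5.50 to 2.63, 2.65 and 2.49. The orphan nuclear receptor gene Nr4a1 fell 5.46-fold and the zinc finger factor gene Egr2 4.55-fold. Arc, whose protein acts at synapses, went from 5.12, 5.13 and 5.12 to 3.32, 3.51 and 3.43, a 3.27-fold fall. The neuron-specific factor gene Npas4 fell 1.95-fold and Egr1 1.91-fold. In each of these genes every 4 h array was above every 24 h array, as was the case at 50.7% of all genes. The members that rose were Nr4a2 (by 1.04), Jun (by 0.50) and Fosb (by 0.86), named after their values were seen. Fosb turned to -0.08 after normexp correction. Egr3 was not called, with a difference of 0.63 ± 0.29 (SE).

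Later activity genes and neurotrophin signalling genes fell at 14 of 15 members, with a median 1.06 below all genes. Bdnf, the neurotrophin that neurons release with activity, had 4.70, 4.66 and 4.67 at 4 h and 2.98, 2.96 and 2.99 at 24 h, a 3.25-fold fall seen with both of its probes. Its receptor gene Ntrk2 fell 2.70-fold on the leading of 3 probes, all lower. Rgs2, a regulator of G protein signalling, fell 4.66-fold and Rheb, an activator of the mTOR kinase, 2.56-fold. The exception was Homer1, a postsynaptic scaffold gene with a short activity-induced form, where 3 of 4 probes were higher and the one nearest the 3′ end was -0.20.

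Short stretches upstream of the start site are given for activity genes whose RefSeq promoter held the cyclic AMP response element, the site of the activity-regulated factor CREB, searched as TGACGTCA, which reads alike on both strands. They come from the RefSeq table (build GRCm38.p6), in which 250 bases before each start site were searched. The site is in capitals.
Pcsk1, chr13:75089749-75089828, plus strand: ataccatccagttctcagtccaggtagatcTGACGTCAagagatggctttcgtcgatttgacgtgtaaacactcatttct
Scg2, chr1:79440045-79440124, minus strand: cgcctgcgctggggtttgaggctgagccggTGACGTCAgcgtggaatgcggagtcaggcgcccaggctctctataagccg
Plk2, chr13:110394952-110395031, plus strand: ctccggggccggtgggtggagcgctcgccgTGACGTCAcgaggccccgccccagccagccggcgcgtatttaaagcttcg
Of 13 later activity genes in that table these 3 held the site, as did 1 of 14 immediate early genes (Btg2), against 1.77% of 27025 genes. The differences of 24 h minus 4 h were -1.22 for Pcsk1, -1.87 for Scg2, -0.84 for Plk2 and -1.63 for Btg2. A match is a description of the sequence and not a site shown to act here.

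Of 14 neuropeptide genes 9 fell (64.3%) and 5 rose (35.7%), near the 50.0% and 33.5% of all genes, with a median 0.68 below all genes. Pdyn, the dynorphin precursor of granule cells, went from 6.60, 6.55 and 6.55 to 4.11, 4.11 and 4.04, a 5.59-fold fall. Adcyap1, the precursor of PACAP, fell 3.87-fold and the galanin gene Gal 2.90-fold. Sst, the somatostatin gene of a class of interneurons, moved the other way, from 1.64, 1.56 and 1.58 to 4.01, 4.04 and 4.05, a 5.42-fold rise. Tac1, the substance P precursor, rose 3.31-fold. The remaining rises were Nts (neurotensin, 1.38), Cort (cortistatin, 1.24) and Vip (0.38), named after their values were seen.

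Glucocorticoid-induced genes were mostly lower at 24 h. Of 19 measured, 16 fell and 1 rose, and their median was 0.57 below all genes. Plin4, a lipid droplet protein gene, fell 6.59-fold, the transcription factor gene Cebpd 5.63-fold, and the kinase gene Sgk1 2.77-fold, from 4.52, 4.59 and 4.63 to 3.01, 3.15 and 3.17. Hif3a, an inhibitory member of the hypoxia factor family, fell by 2.61 on 1 probe, while its other probe, nearer the 5′ end, rose by 0.97. Tsc22d3, the glucocorticoid-induced leucine zipper, fell by 1.13, with 2 of 3 probes lower and 1 higher. The member called higher was Fkbp5, a co-chaperone of the glucocorticoid receptor, at 0.12 ± 0.04 (SE). Its direction did not hold: it was -0.02 after normexp correction, -0.06 with median scaling and -0.09 as the mean of its 3 probes.

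**Figure D3:**
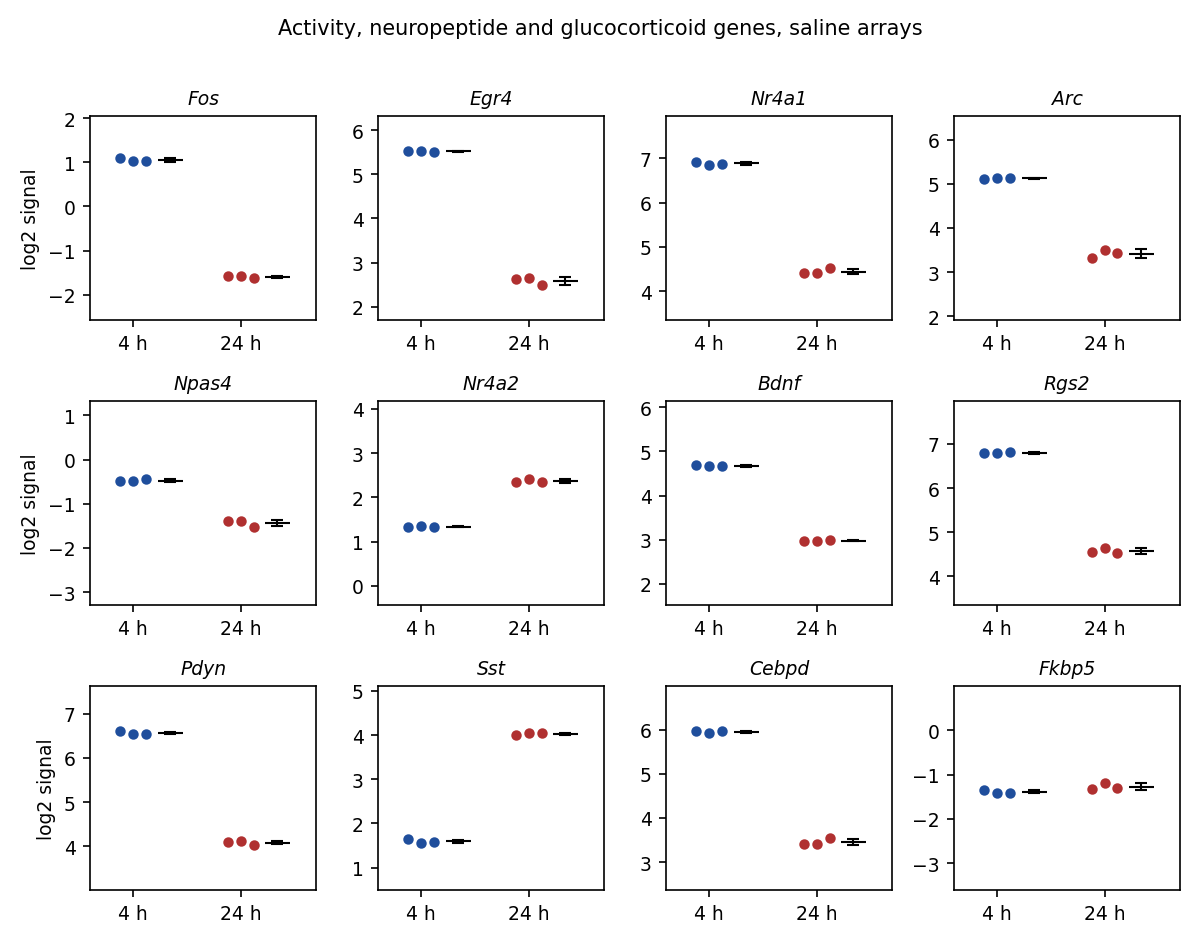
Log2 signal relative to each array's 75th percentile (y axis) of 12 activity, neuropeptide and glucocorticoid genes on the 3 arrays at 4 h (blue) and the 3 at 24 h (red), with the mean and SD beside the points. Fos, Egr4, Nr4a1, Arc, Bdnf, Rgs2, Pdyn and Cebpd are lower at 24 h without overlap, while Sst and Nr4a2 are higher. Over all genes, 50.7% were lower and 34.4% higher without overlap.

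Core clock genes showed no common direction. Of the activators, Npas2 rose 3.07-fold (above background on 2 of 3 arrays at 4 h) and Clock 1.23-fold. Rora fell by 1.14 and Rorb by 0.52, but both turned positive on the probe nearest the 3′ end (1.18 and 0.71), and Rorb was 0.03 as the mean of its probes. Arntl, the gene of BMAL1, which drives the clock with CLOCK, had 0.58, 0.51 and 0.50 at 4 h and 0.50, 0.53 and 0.50 at 24 h. It was not called, and with the percentile over probes above background on all arrays it was 0.18. Of the repressors, Nr1d2 rose by 0.58, Per2 by 0.39, Bhlhe41 by 0.94 and Per3 by 1.54. After normexp correction Bhlhe41 was -0.01 and Per3 -0.28, and Per3 was above background only at 24 h, where it was at least 1.75-fold higher. Cry1 fell by 0.99, Cry2 by 0.26 (0.88 as the mean of its probes) and Nr1d1 by 0.21. Per1 differed by 0.08 ± 0.05 (SE) and Bhlhe40 by 0.01 ± 0.04, neither called, and Bhlhe40 was -0.17 with median scaling. Among the output factors of the PAR-bZIP family and its antagonist, Dbp fell 1.93-fold, from 5.79, 5.72 and 5.75 to 4.75, 4.83 and 4.83. Hlf rose 3.18-fold, from 0.34, 0.18 and 0.24 to 1.95, 1.91 and 1.91, and Nfil3 fell 2.90-fold. Tef was not called (0.04 ± 0.05). The hours that separate 4 h from 24 h fall short of a full day, but no hour of day is given, so these values were not set against a phase. The E-box CACGTG, through which CLOCK and BMAL1 act, lay within 250 bases upstream of 4 of 8 repressor genes in the RefSeq table (Per1, Cry1, Ciart and Bhlhe41), 1 of 4 output genes (Tef) and 0 of 5 activators, against 6.86% of 27025 genes.

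Type I interferon-stimulated genes formed the list with the lowest median, 1.52 below all genes. Of 24 measured, 23 fell and 1 rose, 16 of the falls being at least 2-fold. Bst2, the antiviral membrane protein tetherin, had 5.22, 5.20 and 5.24 at 4 h and 2.71, 2.65 and 2.76 at 24 h, a 5.72-fold fall (SE 0.04 on the log2 scale, limma adjusted p = 6.6e-12). Oasl2, of the oligoadenylate synthetase family, fell 5.62-fold. Ifit3, which binds viral RNA complexes, went from 4.04, 4.07 and 4.12 to 1.83, 1.77 and 1.74, and Oas1a fell 3.46-fold. Isg15, the ubiquitin-like modifier, fell 2.60-fold. Interferon acts on these genes through a complex of STAT and IRF proteins that binds the interferon-stimulated response element. Stretches of the RefSeq promoters (GRCm38.p6) of 4 members are shown, with matches to the element in capitals. It was searched on both strands as TTTC, any 2 bases and TTTC, which on the opposite strand reads GAAA, any 2 bases and GAAA, and neighbouring matches can overlap.
Ifit3, chr19:34583377-34583456, plus strand: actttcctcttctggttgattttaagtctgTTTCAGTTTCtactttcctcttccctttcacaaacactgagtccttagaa
Isg15, chr4:156200835-156200914, minus strand: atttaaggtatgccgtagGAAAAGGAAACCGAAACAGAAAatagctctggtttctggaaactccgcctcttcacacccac
Oas1a, chr5:120907526-120907605, minus strand: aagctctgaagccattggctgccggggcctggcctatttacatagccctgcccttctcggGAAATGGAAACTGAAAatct
Bst2, chr8:71537547-71537626, minus strand: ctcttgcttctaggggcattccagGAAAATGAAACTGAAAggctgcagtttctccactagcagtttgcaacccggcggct
The match was present within 250 bases upstream in 8 of the 18 list members with a promoter in the table, against 3.46% of 27025 genes. One of the 8, Stat2, is the list's only member that rose (0.36), so the match did not go with a fall in every case.

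Antigen presentation, complement and chemokine genes fell alongside. Of 12 MHC class I presentation genes 11 fell and 0 rose, with a median 1.32 below all genes. H2-K1, a class I heavy chain whose probes may also bind related H2 genes, went from 6.52, 6.47 and 6.46 to 4.01, 4.07 and 4.01 and was lower on each of its 4 probes. Its light chain gene B2m fell 2.87-fold and the immunoproteasome subunit gene Psmb8 3.44-fold. Of 8 class II genes 6 fell (75%) and 2 rose (25%), against 50.0% and 33.5% of all genes. The antigen-processing protease gene Ctss of this list fell 3.73-fold. Complement genes fell at 13 of 15 members and rose at 2. C1qc and C1qa, subunits of the initiator C1q made by microglia, fell 4.47-fold and 3.36-fold, and the central component C3 fell 4.06-fold. Among 20 cytokine and chemokine genes 17 fell and 3 rose, with a median 1.31 below all genes. Beside Ccl5, Ccl4 and Ccl3, the monocyte chemokine gene Ccl12 fell 4.80-fold, Cxcl16 3.49-fold and Cxcl10, an interferon-induced chemokine, 5.24-fold.

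Of 20 activated microglia and macrophage markers 16 fell and 2 rose. Spp1, osteopontin, went from 5.82, 5.79 and 5.80 to 3.24, 3.28 and 3.30, a 5.78-fold fall, while the fungal pattern receptor gene Clec7a fell 3.09-fold and Gpnmb 2.22-fold. Homeostatic microglia markers fell at 9 of 14 and rose at 3 (64.3% lower, against 50.0% of all genes), with a median 0.44 below all genes. Aif1, the gene of the microglial protein IBA1, had 5.43, 5.47 and 5.50 at 4 h and 3.22, 3.17 and 3.20 at 24 h, a 4.83-fold fall on its leading probe, with both probes lower. The microglial surface protein gene Tmem119 fell 2.21-fold and Siglech 2.16-fold. Markers of lymphocytes fell at 6 of 10 members (60.0%, near the 50.0% of all genes) and rose at 0, with a median 1.38 below all genes. All 6 falls were at least 2-fold, as were falls at 16.3% of all genes. Of the 8 members above background on all 6 arrays 5 fell. Among the falls were the CD8 chain gene Cd8b1 (5.61-fold) and the B cell receptor component Cd79b (3.18-fold). Neutrophil and blood monocyte genes were mostly unmeasured, 5 of 14 having passed the filter.

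Reactive astrocyte markers fell at 16 of 21 members and rose at 2, with a median 0.89 below all genes. Aspg, an asparaginase induced in reactive astrocytes, went from 5.061, 5.003 and 5.027 to 2.58, 2.50 and 2.57, and the transglutaminase gene Tgm1 fell 4.63-fold. Gfap, the intermediate filament of astrocytes, went from 6.26, 6.17 and 6.21 to 4.39, 4.60 and 4.45 on its leading probe, a 3.33-fold fall. Its other probes differed by -0.32 and 0.07, the latter nearest the 3′ end and not called, so the size for Gfap depends on the probe. Homeostatic astrocyte genes divided into 7 rises (46.7%) and 8 falls (53.3%) among 15, against 33.5% and 50.0% of all genes, with S100b 3.17-fold lower. Myelin genes fell at 10 of 13 members, but their median was only 0.20 below all genes and changed side in 3 of the 22 alternatives. Mag, a myelin glycoprotein gene, differed by -1.80 and 0.80 on its 2 probes.

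**Figure D4:**
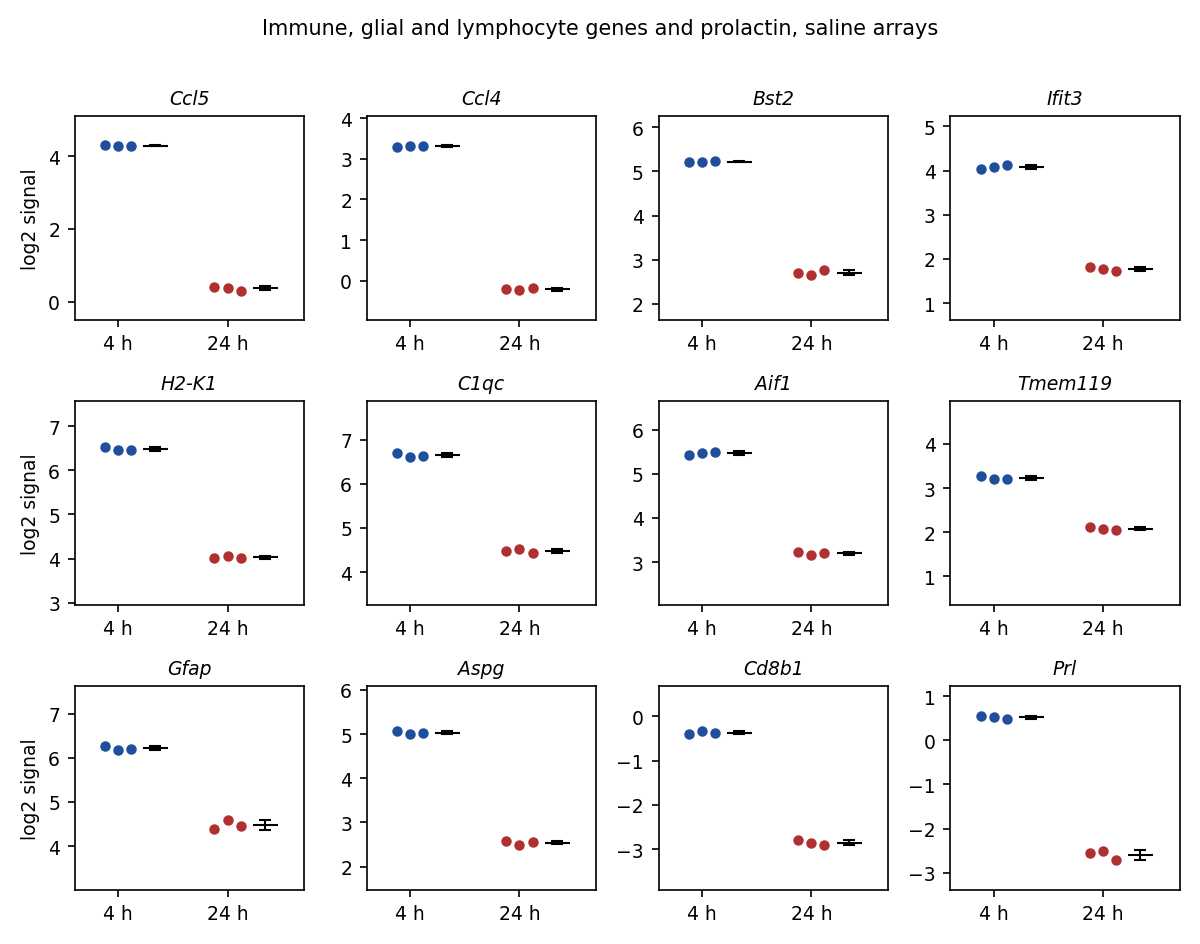
Log2 signal relative to each array's 75th percentile (y axis) of 12 immune, glial, lymphocyte and hormone genes on the 3 arrays at 4 h (blue) and the 3 at 24 h (red), with the mean and SD beside the points. Each of the 12 is lower at 24 h with no overlap between the groups, by 1.14 (Tmem119) to 3.92 (Ccl5) on the log2 scale. Over all genes, 50.7% were lower without overlap.

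The lists of ion channel genes had more members higher than lower at 24 h. Voltage-gated calcium channel subunits had the highest median of all 46 lists, 1.42 above all genes, with 15 of 17 called higher and 1 lower. Of these, 2 were above background on all 24 h arrays and none of the 4 h arrays, and of the 15 above background on all 6 arrays 13 were higher and 1 lower. Cacna2d1, the gabapentin-binding accessory subunit, had -0.11, -0.22 and -0.11 at 4 h and 1.60, 1.59 and 1.72 at 24 h, a 3.44-fold rise (SE 0.04 on the log2 scale, limma adjusted p = 9.1e-11). Cacng3, like Cacng8 a regulatory subunit of AMPA receptors counted with this list, rose 4.48-fold. Cacnb3 rose 2.44-fold. Sodium and HCN channel genes were higher at 8 of 11 members and lower at 2. Their median was 0.96 above all genes. Of the 9 above background on all 6 arrays 7 were higher and 2 lower, with a median 0.86 above that of all genes kept by this stricter rule. Among 26 potassium channel genes 18 were higher and 6 lower, and among the 23 above background on all 6 arrays 16 were higher and 6 lower. Kcnc1, a channel of fast-spiking neurons, went from -1.19, -1.24 and -1.22 to 1.11, 1.06 and 1.18, Kcnip2 rose 4.96-fold and Kcnh1 5.78-fold.

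Transmitter receptor genes were divided. Of 7 metabotropic glutamate receptor genes 4 were higher (57.1%) and 2 lower (28.6%), against 33.5% and 50.0% of all genes. Grm5 rose from -0.09, -0.08 and -0.10 to 2.18, 2.42 and 2.38 and was higher on each of 4 probes. Of 14 ionotropic glutamate receptor genes 5 were higher (35.7%), 3 lower (21.4%) and 6 not called. The NMDA receptor subunit genes moved apart: Grin3a rose 3.42-fold and Grin1, the obligatory subunit, 2.83-fold, while Grin2c fell 2.31-fold. GABA-A receptor genes rose at 7 (58.3%) and fell at 5 (41.7%) of 12. Gabra4 and Gabra2 rose 2.86-fold and 3.51-fold, and Gabrd, the subunit that joins alpha4 in tonic receptors of granule cells, fell 2.65-fold, from 4.71, 4.66 and 4.72 to 3.29, 3.25 and 3.34. Genes of GABA synthesis and transport, GABA-B receptors and chloride transporters were higher at 8 and lower at 2 of 10, with a median 0.71 above all genes. Gabbr2, of the metabotropic GABA-B receptor, rose 2.24-fold, and Slc12a5, the chloride exporter KCC2, fell 2.21-fold.

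Presynaptic vesicle and release genes were higher at 14 of 21 members, lower at 3, with a median 0.81 above all genes. Syp, the vesicle protein synaptophysin, had 1.34, 1.38 and 1.36 at 4 h and 3.87, 3.78 and 3.83 at 24 h, a 5.53-fold rise. The vesicular glutamate transporter gene Slc17a7 went from -0.62, -0.45 and -0.57 to 1.68, 1.71 and 1.80.

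Markers of the hippocampal cell classes were present on the arrays: Prox1 of granule cells, Wfs1 of CA1 and Camk2a of excitatory neurons were above background on all 6, as were 10 of 11 granule cell, 13 of 14 pyramidal cell and 18 of 18 interneuron markers measured. Granule cell markers were higher at 8 and lower at 1, with Prox1 going from 0.16, 0.11 and 0.26 to 0.94, 1.00 and 1.03. Of the 10 above background on all 6 arrays 7 were higher and 1 lower. C1ql2, a secreted synaptic protein of mossy fibres, rose 4.21-fold. Pyramidal cell markers were higher at 11 of 14 and lower at 2, and of the 13 above background on all 6 arrays 10 were higher and 2 lower. Camk2a went from 3.88, 3.90 and 3.89 to 5.41, 5.45 and 5.44, Fibcd1 rose 7.65-fold and Wfs1 1.21-fold, while Bok fell 4.52-fold. Interneuron markers were higher at 16 of 18 (88.9%) and lower at 2 (11.1%), against 33.5% and 50.0% of all genes. Of the 2 falls 1 was at least 2-fold. Nos1, the neuronal nitric oxide synthase gene, was 2.67-fold higher beside Sst and Tac1.

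Genes of neighbouring tissue moved too. Markers of thalamus, cortex and striatum rose at 11 (55%) and fell at 8 (40%) of 20, against 33.5% and 50.0% of all genes. Among them were the striatal gene Ppp1r1b (4.11-fold higher) and the thalamic Ramp3 (3.92-fold lower). Of 7 anterior pituitary hormone genes 4 fell (57.1%, against 50.0% of all genes), 1 rose and 2 were not called. Of the 4 that were above background on all 6 arrays 3 fell and 0 rose, with Prl at 0.55, 0.53 and 0.48 at 4 h and -2.56, -2.51 and -2.72 at 24 h, Gh 3.33-fold lower and Pomc 2.74-fold lower. The list of thalamus, cortex and striatum markers had a median difference 0.54 above all genes, but its members were split, with quartiles of -1.33 and 1.77. Of its 18 members above background on all 6 arrays 9 rose and 8 fell. The median level of this list per array was -1.046 to -0.998 at 4 h and 0.07 to 0.10 at 24 h. The part of neighbouring tissue in the neuronal results was not tested. Choroid plexus and ependyma markers fell at 12 of 14, but their median changed side relative to all genes in 2 of the 22 alternatives.

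**Figure D5:**
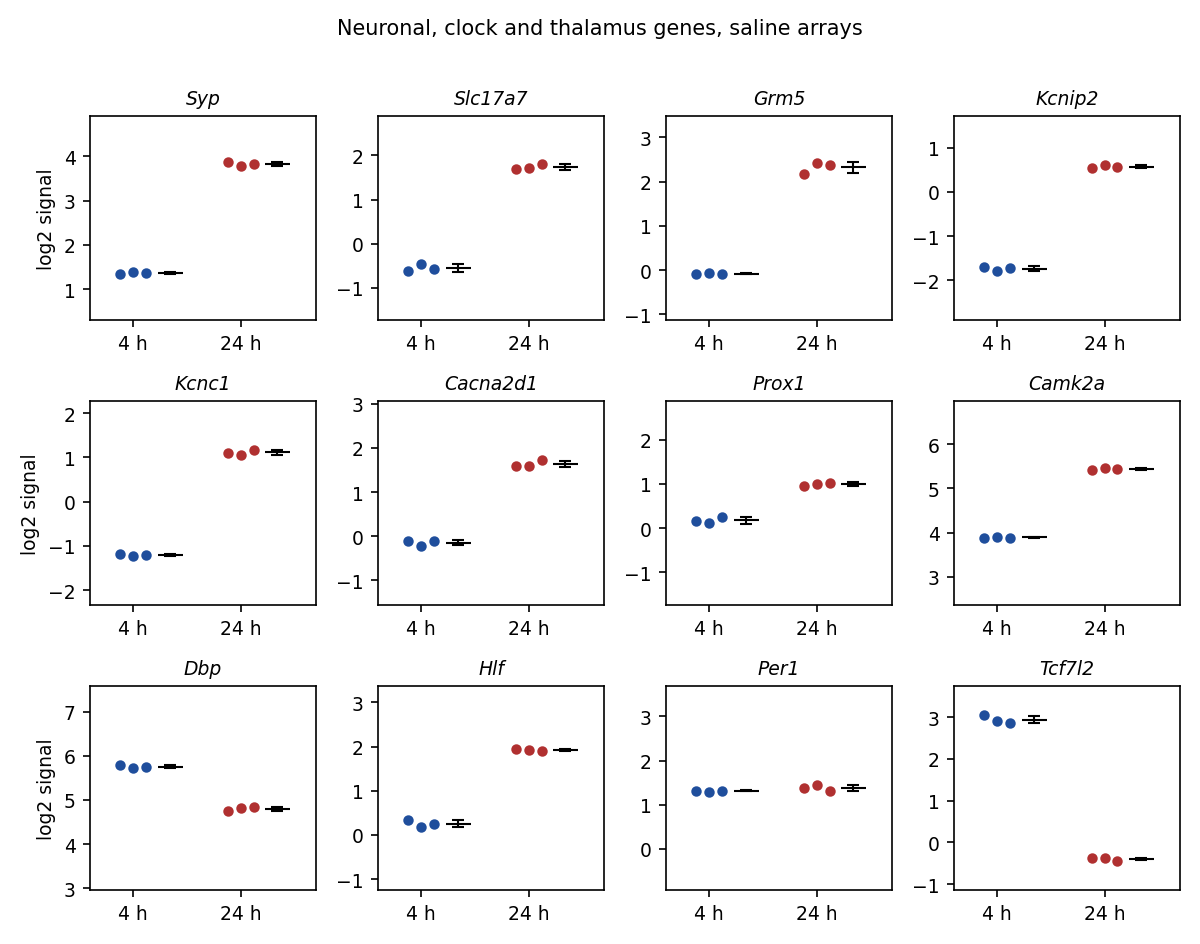
Log2 signal relative to each array's 75th percentile (y axis) of 12 neuronal, clock and thalamic genes on the 3 arrays at 4 h (blue) and the 3 at 24 h (red), with the mean and SD beside the points. The 8 neuronal genes of the upper panels are higher at 24 h by 0.81 (Prox1) to 2.47 (Syp) on the log2 scale, Dbp and Tcf7l2 are lower, and Per1 was not called.

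Cytosolic ribosomal protein genes fell at 29 of 30 members and rose at 0, with a median 0.88 below all genes. They are bright genes, and 75.7% of the brightest of the 4 signal classes were called lower. The median difference of that class was -0.61, against -1.05 for the ribosomal list. Relative to all genes the list median ranged from -0.92 to -0.08 across the settings. Rps29 went from 9.02, 9.01 and 8.95 to 7.34, 7.35 and 7.34, and Rps27 fell 2.43-fold. These genes have many near-identical pseudogenes, which the probes may share. Mitochondrial respiratory chain subunits fell at 24 of 25 members (Cox5a 3.00-fold, Ndufa1 2.68-fold), but their median lay above that of all genes with quantile normalization, cyclic loess and the deposited matrix. Cell cycle genes fell at 15 of 20 (75%) and rose at 3 (15%), against 50.0% and 33.5% of all genes. The replication factor gene Mcm3 was 3.02-fold and the mitotic gene Birc5 3.24-fold lower. The unfolded protein response list lay near all genes, with 7 rises (35.0%) and 9 falls (45.0%) among 20 and the disulfide isomerase gene Pdia4 2.83-fold higher.

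The LPS arrays give the same contrast of time in other mice on the same slides and in the same runs. There 13130 of the 17198 genes were called (76.3%), 5573 higher (32.4%) and 7557 lower (43.9%) at 24 h, and 2004 were called and at least 2-fold (11.7%). Of the 4944 genes at least 2-fold apart in the saline arrays, 3820 were called in the same direction in the LPS arrays, 355 in the opposite one and 769 not called. The size of the difference itself was tested: 12243 genes (71.2%) had a time difference in the LPS arrays unlike that in the saline arrays, 4159 of them among the 4944. Array signal also differed between the arms. The 75th percentile was 663 intensity units for LPS and 365 for saline at 4 h, and 820 and 769 at 24 h. The share of probes well above background was 59.6% and 54.6% at 4 h, and 69.7% and 65.6% at 24 h. The part of this in the differences between the arms was not tested. The difference of Bst2 was -2.51 in the saline and -0.38 in the LPS arrays, that of Ifi27l2a -3.34 and -0.14, and that of Wfdc18 -3.94 and -0.55. Bdnf fell in the saline arrays but was 0.32 higher at 24 h in the LPS arrays, and the difference of Npas4 was -0.96 in the saline and 1.05 in the LPS arrays. In contrast, the glucocorticoid-induced list had a lower median in the LPS arrays (-1.54) than in the saline arrays (-0.73). Ccl4 differed by -3.51 after saline and -3.57 after LPS, and Sgk1 by -1.47 and -1.50. The tests of these 2 differences between the arms gave -0.06 ± 0.05 (SE) and -0.03 ± 0.06 (limma adjusted p = 0.30 and 0.66).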

How the data were processed

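Total RNA of whole hippocampus was hybridised to 12 one-colour Agilent arrays on 6 slides, each slide holding 1 saline and 1 LPS array of the same time. The deposited scanner files give a processed intensity per spot, made by the authors with Feature Extraction version 10.7.3.1 per the file headers (9.1 per the submitters' processing notes). The authors' deposited value table is on the log2 scale and equals normexp correction with an offset of 50, quantile normalization and log2 of the same arrays. It was used as an alternative.

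From the intensities, log2 values were taken relative to each array's 75th percentile, after control spots and 926 spots flagged as outliers over all arrays were left out and repeated spots averaged. Probes well above background on all 3 arrays of either saline group were kept (26096), and each of 17198 genes was represented by its brightest probe. Probe coordinates are those of the files, on mm9. A model with 4 group means over 12 arrays was fitted with limma 3.58.1 in R 4.3.3 and p-values were adjusted by Benjamini-Hochberg over all genes. Tables were joined in Python 3.11.15. The fit was tested on simulated data.

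Genes were named as the 15 largest rises and falls, the 5 largest bounds each way, up to 4 members per list by adjusted p, all clock genes and a few fixed genes. Cort, Egr3, Fosb, Homer1, Isg15, Jun, Nr4a2, Nts, Rn18s, Vip, Btg2, Pcsk1, Plk2, Scg2 and Stat2 fall outside that rule and were chosen after values were seen. Some genes that the rule names are not reported here. The comparison and the lists were chosen with earlier results of these data known. Array number limits the precision. Alternatives covered background correction, scaling, filter, probe choice, model and each array left out. The replicate numbers were checked for pairing and do not pair the samples.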

Additional observations from a re-analysis of the deposited data

Results flagged for a closer look

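For 139 of the 146 named genes that were above background on all 6 saline arrays, the difference of 24 h minus 4 h was not the same in the LPS arrays as in the saline arrays, by a test of the difference itself in limma (adjusted p between 5.01e-10 and 0.0348). The LPS difference was the smaller in size for 123 of them, the larger for 16, and of opposite sign for 23. The named genes were mostly chosen for a large or well-measured saline difference, and of the 11430 genes that differed in this way among all those above background on the 6 arrays, 74.5% had the smaller LPS difference. Those 11430 are of 14901 genes above background on all 6 arrays, and over all genes tested 71.2% differed in this way. The share among the named genes is therefore given as a description. The saline 4 h arrays had the lowest 75th percentile of signal of the 4 groups, and the part of this was not tested. The values below are the LPS difference minus the saline difference on the log2 scale, so a positive value at a gene that fell after saline means a smaller fall, or a rise, after LPS.

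Among other genes named with a lower saline mean at 24 h, the value was positive for Wfdc18 3.39, Ifi27l2a 3.20, Ucn 3.11, Lce1f 2.66, Smpx 2.48, Tnfrsf12a 2.03, Gpr151 2.02, Calml3 1.82, Gh 1.49, Prl 1.34, Cox5a 1.10, Mcm3 1.05, Ndufa1 0.87, Rps29 0.76, Rps27 0.75, Pomc 0.74, Gusb 0.73, Mag 0.69 and Birc5 0.54. Among other genes named with a lower saline mean at 24 h, the value was negative for Cd300lf -0.99. Signal above background was required on the saline arrays only. For Gh the LPS means were -6.38 at 4 h and -6.62 at 24 h. Cacng8, at a mean of -6.23, was above background on none of the saline 4 h arrays. The value for Gh is therefore uncertain and does not show a smaller fall after LPS. Among other genes named with a higher saline mean at 24 h, the value was negative for Lars2 -0.38, Kdm8 -0.94, Gapdh -1.41, Tmcc2 -1.53, Klrb1c -1.54, Rn18s -1.60, Dio3 -1.64, Pdia4 -1.69, Dlg4 -1.85, Nnat -2.09, Zfp871 -2.30, Actb -2.37, Ldb2 -2.38, Ywhae -2.66, Msi2 -2.81, Dedd -3.00 and Rcor3 -3.13.

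Among activity, neuropeptide and glucocorticoid-induced genes with a lower saline mean at 24 h, the value was positive for Scg2 2.24, Rgs2 2.06, Bdnf 2.02, Npas4 2.01, Adcyap1 1.88, Egr4 1.72, Gal 1.66, Pdyn 1.57, Nr4a1 1.28, Fos 1.05, Btg2 0.94, Pcsk1 0.82, Ntrk2 0.79, Rheb 0.70, Arc 0.54 and Cebpd 0.31. Among activity, neuropeptide and glucocorticoid-induced genes with a lower saline mean at 24 h, the value was negative for Plin4 -0.22, Egr1 -0.38, Egr2 -0.97, Hif3a -1.45 and Tsc22d3 -1.57. Among activity, neuropeptide and glucocorticoid-induced genes with a higher saline mean at 24 h, the value was negative for Nr4a2 -0.19, Vip -0.64, Homer1 -0.72, Fosb -0.93, Tac1 -0.98, Jun -1.14, Nts -1.27, Fkbp5 -1.76, Sst -1.82 and Egr3 -1.87.

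Among immune, microglial and astrocyte genes with a lower saline mean at 24 h, the value was positive for Ccl5 2.32, Bst2 2.14, H2-K1 1.93, Oasl2 1.82, Cd79b 1.81, Cd8b1 1.80, Oas1a 1.78, C3 1.68, Aif1 1.65, Ccl12 1.55, Spp1 1.48, Cxcl16 1.46, Gfap 1.43, Ctss 1.37, Aspg 1.36, B2m 1.33, Tmem119 1.30, Gpnmb 1.21, Ifit3 1.13, C1qc 1.12, C1qa 1.10, Tgm1 1.10, S100b 1.01, Psmb8 0.96, Clec7a 0.95, Siglech 0.92 and Isg15 0.84. Among immune, microglial and astrocyte genes with a lower saline mean at 24 h, the value was negative for Cxcl10 -0.21. Among immune, microglial and astrocyte genes with a higher saline mean at 24 h, the value was negative for Stat2 -0.19.

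Among clock genes with a lower saline mean at 24 h, the value was positive for Nfil3 0.79, Dbp 0.67, Nr1d1 0.66, Cry2 0.66, Cry1 0.52, Rora 0.46 and Arntl 0.38. Among clock genes with a higher saline mean at 24 h, the value was negative for Per1 -0.19, Per2 -0.30, Clock -0.40, Bhlhe41 -0.62, Nr1d2 -0.70, Bhlhe40 -0.74 and Hlf -1.05.

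Among channel, receptor, vesicle and neuronal marker genes with a lower saline mean at 24 h, the value was positive for Gabrd 1.56, Tcf7l2 1.48, Bok 1.48, Ramp3 1.02, Grin2c 0.63 and Slc12a5 0.49. Among channel, receptor, vesicle and neuronal marker genes with a higher saline mean at 24 h, the value was negative for Wfs1 -0.16, Grin1 -0.20, Kcnip2 -0.30, Gabbr2 -0.51, Kcnh1 -0.60, Gabra2 -0.62, Gabra4 -0.68, Cacnb3 -0.72, Cacna2d1 -0.90, Prox1 -0.96, Kcnc1 -0.996, Cacng3 -1.10, Grin3a -1.15, Slc17a7 -1.17, Fibcd1 -1.25, Syp -1.27, C1ql2 -1.28, Nos1 -1.35, Camk2a -1.40, Ppp1r1b -1.40, Grm5 -1.56 and Syt4 -2.81.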

How the results depend on the processing

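The number of called genes stayed within 1.5 times the main 14357 under every alternative run. The number called and at least 2-fold apart (4944) was 3107 after normexp correction, 2278 with the deposited value table and 11196 with no filter. The number of lists above all genes (18) was 28 with no filter. Leaving out each array in turn gave 13944 to 14110 called genes, 4860 to 4998 at least 2-fold apart and 17 to 19 lists. With the replicate block, 14257 genes were called, 4948 at least 2-fold apart, and 18 lists lay above all genes. Same-numbered samples correlated at -0.16, -0.07 and 0.01, so they share only a number. With slide as a random block 14354 genes were called. Gene differences turned sign after normexp correction for Bhlhe41 (-0.0056), Fkbp5 (-0.021), Fosb (-0.082) and Per3 (-0.28), and with median scaling for Bhlhe40 (-0.17) and Fkbp5 (-0.063). They turned for Arntl (0.18) with the percentile over probes above background on all arrays, for Timmdc1 (-0.77) with the filter on all 6 arrays, and with the mean of probes for Cry2 (0.88), Fkbp5 (-0.094) and Rorb (0.030). With the probe closest to the 3′ end, an alternative chosen after seeing the data, they turned for Gfap (0.075), Homer1 (-0.20), Rora (1.18) and Rorb (0.71). The cause was not tested. With 3 arrays per group and time tied to scan run, neither a time effect nor a run effect can be singled out, and genes near background are limited to bounds.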
